A study of Homo sapiens with 76 samples.

Results

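FAM123B and DAAM1 are the 2 genes of a DNA damage qPCR panel that are best known from Wnt signalling, and they were measured here in TK6 cells exposed to agents that do or do not damage DNA. They were taken by name from the deposited quantification cycle (Cq) matrix and make up 2 of its 61 panel genes. FAM123B is the older name, used on the panel, of AMER1, which is also called WTX. TK6 is an established human B lymphoblastoid cell line, so every value below comes from 1 line. The 76 samples comprised 29 treatments and 9 vehicle controls, each with 2 replicates, and the labels give a time of 4 h for every sample.

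The labels put 14 treatments in the DNA damage-inducing (DDI) class and 15 in the non-DDI class. The DDI treatments were the alkylating agents cisplatin (80 µM) and methylmethane sulfonate (MMS, 40 µg/ml), the topoisomerase inhibitors camptothecin (125 nM) and etoposide (200 nM), the antimetabolites 5-fluorouracil (25 µg/ml), methotrexate (100 µM), arabinofuranosyl cytidine (AraC, 50 µM) and hydroxyurea (0.5 mM), the strand break agents gamma rays (4 Gy), bleomycin (10 µg/ml) and H2O2 (80 µM), and the metals CdCl2 (50 µM), K2CrO4 (100 µM) and NaAsO2 (20 µM). The non-DDI treatments were the antimitotic agents colchicine (250 ng/ml), docetaxel (50 nM), paclitaxel (50 nM) and vinblastine (200 ng/ml), and the histone deacetylase (HDAC) inhibitors trichostatin A (20 ng/ml), apicidin (1 µg/ml), HC toxin (20 ng/ml) and oxamflatin (1 µM). They also included the endoplasmic reticulum modulators tunicamycin (2.5 µg/ml) and thapsigargin (250 nM), the energy metabolism inhibitors 2-deoxyglucose (20 µM as labelled) and antimycin A (100 µM), heat shock (47 °C), and ethanol at 2% and 4%. The paper lists heat shock as 20 min at 47 °C, so the labelled 4 h is not the length of that exposure. The number of treatments set against a vehicle was 7 for H2O, 10 for DMSO, 4 for plain medium and 3 for EtOH. The vehicles acetonitrile, NaOH, MeOH, a separate MeOH for MMS and a separate H2O for NaAsO2 had 1 each. All agents except ethanol were given at a single dose, so no dose response can be read for them.

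AMER1 is an adaptor protein at the plasma membrane that binds APC and beta-catenin and favours the breakdown of beta-catenin, the messenger of canonical Wnt signalling. It is altered in part of Wilms tumours and in the bone disorder osteopathia striata with cranial sclerosis. DAAM1 is a formin, a protein that nucleates and lengthens unbranched actin filaments. It binds Dishevelled and links Wnt receptors to the cytoskeleton in the planar cell polarity branch of the pathway. The panel therefore holds a negative regulator of the canonical branch and an effector of the non-canonical branch, and no Wnt ligand or receptor.

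The promoters of both genes are shown because the 2 transcripts moved in opposite directions in many treatments (below). In RefSeq on GRCh38.p14, AMER1 (gene ID 139285) spans chrX:64185117-64205708 on the minus strand, which is 20592 bp. DAAM1 (gene ID 23002) spans chr14:59188667-59371405 on the plus strand, which is 182739 bp. The 250 bases upstream of each annotated start lie at chrX:64205709-64205958 (minus strand) and chr14:59188417-59188666 (plus strand). Capitals mark matches, on either strand, to the GC box GGGCGG, the CCAAT box CCAAT and the TCF/LEF core in the spellings CTTTGA and CTTTGT, where TCF/LEF are the DNA-binding partners of beta-catenin.
AMER1 upstream: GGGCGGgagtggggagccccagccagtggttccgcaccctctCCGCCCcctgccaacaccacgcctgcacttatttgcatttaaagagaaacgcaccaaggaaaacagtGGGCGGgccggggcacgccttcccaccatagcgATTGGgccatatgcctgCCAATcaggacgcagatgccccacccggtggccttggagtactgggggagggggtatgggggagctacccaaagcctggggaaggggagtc
DAAM1 upstream: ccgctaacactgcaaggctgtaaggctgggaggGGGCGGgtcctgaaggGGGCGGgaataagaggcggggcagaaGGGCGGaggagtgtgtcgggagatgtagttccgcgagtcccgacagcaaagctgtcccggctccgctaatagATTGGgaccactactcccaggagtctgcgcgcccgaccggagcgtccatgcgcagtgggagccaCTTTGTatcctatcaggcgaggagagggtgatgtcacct
The AMER1 window held 3 GC boxes and 2 CCAAT boxes. The DAAM1 window held 3 GC boxes, 1 CCAAT box and 1 CTTTGT, the last starting 39 bases before the start. Among 35116 RefSeq promoter windows of the same length, 42.6% held a GC box, 32% a CCAAT box, 11.2% CTTTGA and 13.7% CTTTGT. The windows are GC-rich, with 64% G and C in AMER1 and 62.8% in DAAM1 against a median of 58% over all windows. A second annotated DAAM1 start is not shown.

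Both transcripts were detected in every sample. FAM123B had a Cq of 26.46 to 29.49 with a median of 27.59, and DAAM1 a Cq of 24.84 to 28.86 with a median of 26.96. A lower Cq means more transcript, and each step of 1 is a doubling at full amplification efficiency. The levels below are minus ΔCq, the mean Cq of the reference genes HPRT and GUSB minus the Cq of the gene, on the log2 scale. Levels of the 2 genes are not set against each other, because assays differ in efficiency. The references were HPRT, at a Cq of 22.21 to 23.98, and GUSB, at 23.40 to 25.24, and GUSB minus HPRT ran from 0.70 to 2.34 with a median of 1.23. TNFRSF17, a receptor of the B cell lineage and the panel's only lineage marker, was detected in all samples at a Cq of 26.91 to 30.12. The 61 panel genes together ran from a Cq of 20.7 to 38.22.

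Some deposited Cq values were shared between vehicle samples. Of 2850 pairs of samples, 6 had the same Cq, to the second decimal, in 10 or more panel genes, while the other pairs shared at most 4 and a median of 0. The EtOH and acetonitrile vehicles shared 50 of 61 values in each replicate. FAM123B stood at a Cq of 27.26 in replicate 1 and 27.15 in replicate 2 of both vehicles, and DAAM1 at 26.47 and 26.51, while their reference genes differed. FAM123B of the MeOH vehicle, replicate 1, held 27.26 as well. The comparisons of colchicine, tunicamycin, antimycin A and thapsigargin rest on these vehicle values, as does FAM123B of HC toxin in part, and they are given below with another comparator where a call changes.

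FAM123B was lowest, among the vehicles, in the H2O vehicle that served 7 treatments. Its level was −4.83 and −4.81 there. In the DMSO vehicle it was −4.07 and −3.82, in medium −3.97 and −3.69, and in the EtOH vehicle −3.94 and −3.85. The H2O replicates lay below all samples of the other vehicles, of which the lowest was the separate H2O vehicle for NaAsO2 at −4.55, whose second replicate was −3.86. Against the mean of the 8 other vehicles, FAM123B was lower in H2O by a log2 difference of −0.996 (standard error 0.11, adjusted p = 6.73e-11, limma). DAAM1 went the other way and was higher in H2O, at −2.86 and −3.08, by 0.42 (standard error 0.16, adjusted p = 0.021, limma). With HPRT as the only reference that DAAM1 difference was 0.25 with an adjusted p of 0.234, and without replicate 1 of the H2O vehicle it was 0.31 with an adjusted p of 0.249, both from limma. With the median of the 61 panel genes as reference the H2O differences were −0.39 for FAM123B (adjusted p = 0.0055) and 1.03 for DAAM1 (adjusted p = 7.6e-08), both called by limma. This vehicle differed from the others in much of the panel, with 55.7% of the genes called lower and 14.8% called higher. The lowest DAAM1 vehicle was the separate H2O for NaAsO2, at −4.48 and −4.28, below both replicates of the 8 other vehicles.

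**Figure D1:**
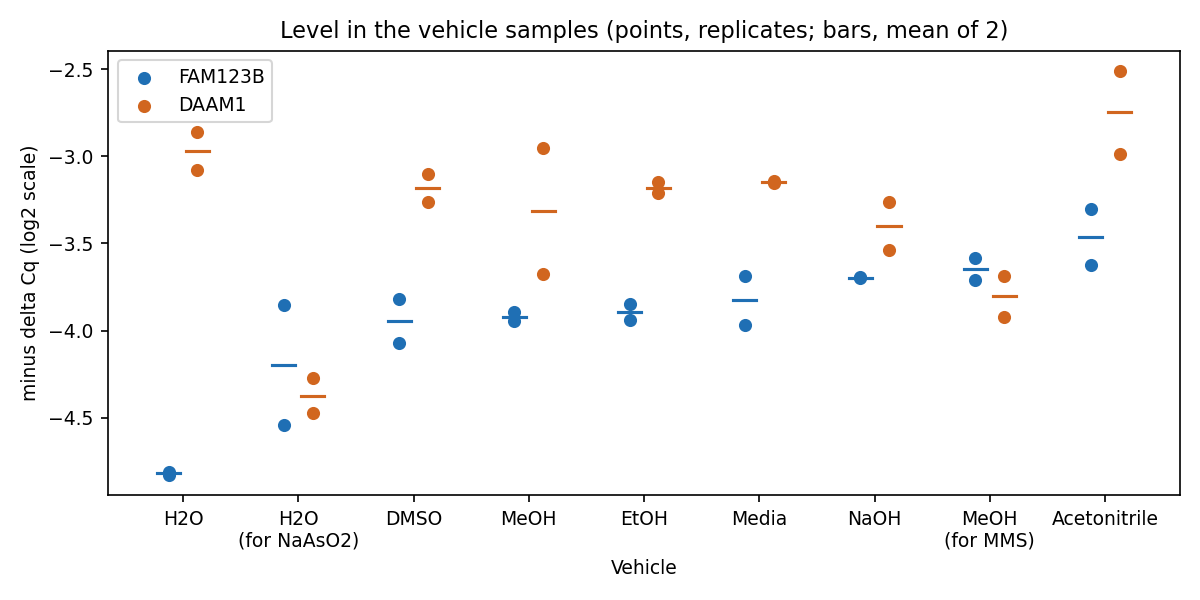
Minus ΔCq (log2 scale) of FAM123B and DAAM1 in the 9 vehicles, with a point for each replicate and a bar for the mean of 2. FAM123B is lowest in H2O, at −4.83 and −4.81, and DAAM1 is lowest in the separate H2O for NaAsO2, at −4.48 and −4.28.

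Against their own vehicle, both genes changed in most treatments and did so in both directions. FAM123B rose in 8 treatments, fell in 10 and was not called in 11, and DAAM1 rose in 8, fell in 13 and was not called in 8, at an adjusted p under 0.05 (limma). Over all 61 genes and 29 treatments, 29.8% of the tests were called higher and 13.5% lower. In a single treatment, the share of genes called higher ran from 0.00% to 67.2% and the share called lower from 0.00% to 34.4%. Across the panel, higher calls thus outnumbered lower ones, while DAAM1 had more lower than higher calls. For FAM123B the order depended on the setting. It had 9 higher and 7 lower calls with HPRT as the only reference. When only the samples of a treatment and its vehicle were fitted, it had 8 higher and 5 lower calls. Among the single genes, DAAM1, B3GNT2 and RAPGEF2 were each called lower in 13 treatments, behind the histone gene HIST1H2BG with 18. The replicates gave the same sign in 28 of 29 treatments for DAAM1 and in 24 of 29 for FAM123B, and their fold changes correlated across treatments at r = 0.933 and r = 0.952 (n = 29, with shared vehicles). The 2 treated and 2 vehicle samples did not overlap in 26 treatments for DAAM1 and in 22 for FAM123B, against 68.5% of all tests.

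**Figure D2:**
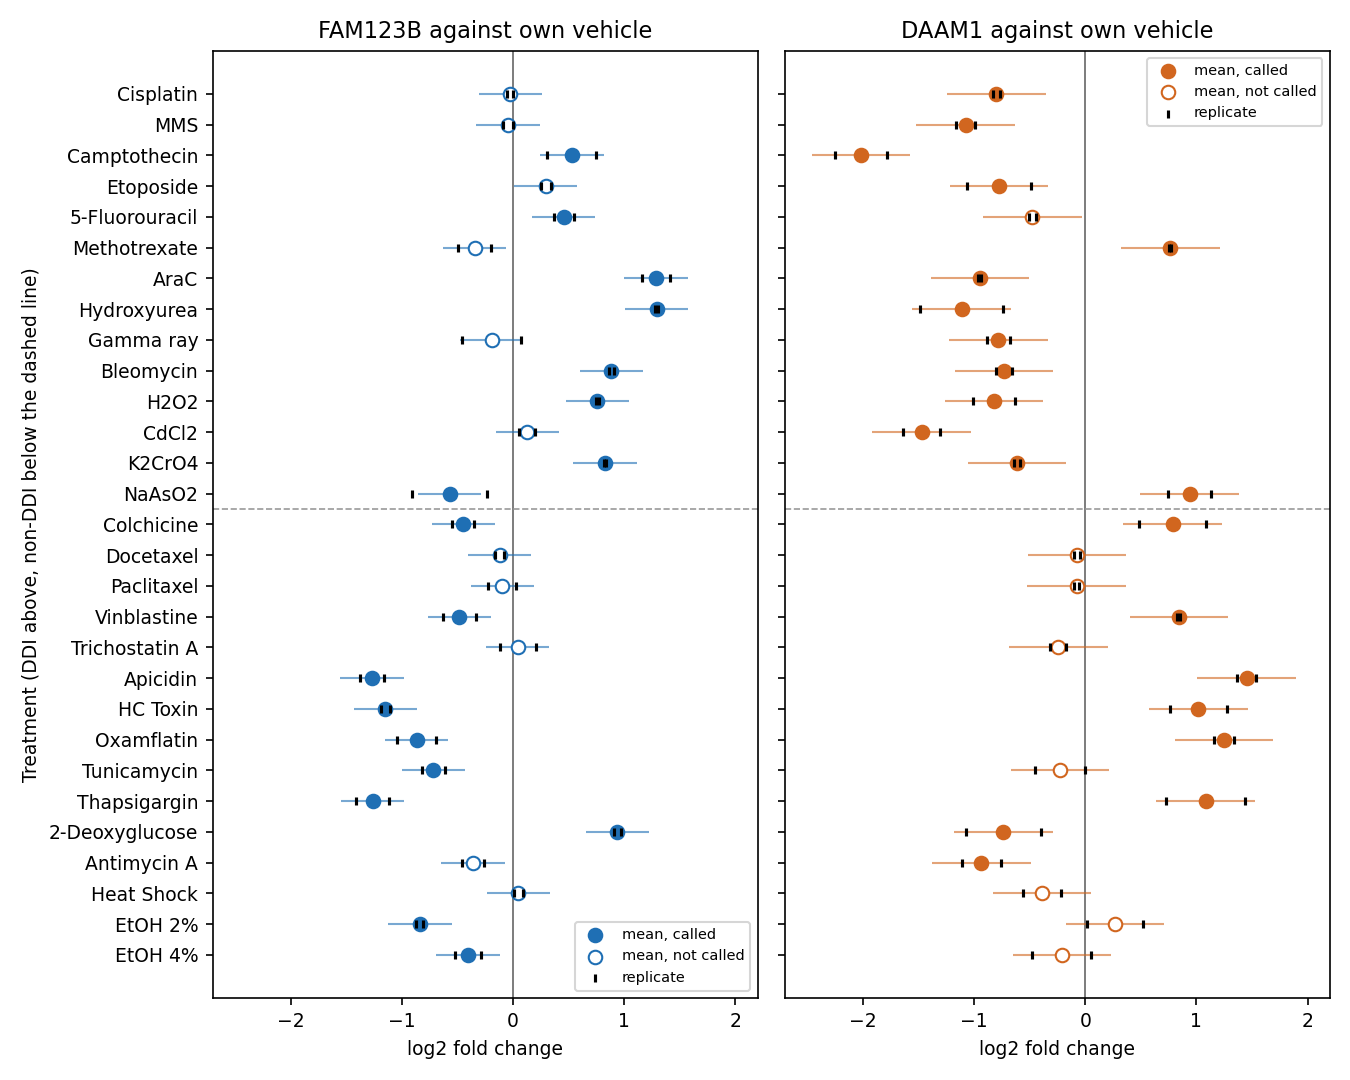
Log2 fold change of FAM123B (left) and DAAM1 (right) in 29 treatments against their own vehicle, with the mean as a circle (filled where adjusted p was under 0.05), its 95% confidence interval as a line and the replicates as ticks. DAAM1 lies below 0 in 12 of the 14 DDI treatments, and the widest shift is camptothecin at −2.02.

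DAAM1 fell in 11 of the 14 DDI treatments, where 14.9% of all tests on DDI treatments were called lower. The deepest fall came with camptothecin, which traps topoisomerase I on DNA. DAAM1 stood at −5.35 and −5.04 in the camptothecin samples and at −3.10 and −3.26 in their DMSO vehicle. The treated samples lay far below the vehicle samples, at a log2 fold change of −2.02 (standard error 0.22, adjusted p = 7.9e-11, limma). CdCl2 followed, with −4.50 and −4.39 against −2.86 and −3.08 in the H2O vehicle, a change of −1.47 (standard error 0.22, adjusted p = 3.82e-07, limma). MMS, which methylates DNA, gave −4.68 and −5.08 against −3.69 and −3.92 in its own vehicle, a change of −1.08 (standard error 0.22, adjusted p = 4.58e-05, limma). Hydroxyurea, which starves cells of deoxynucleotides, gave a change of −1.11 (standard error 0.22, adjusted p = 1.46e-05, limma) against the H2O vehicle. The groups did not overlap with camptothecin, CdCl2, MMS or hydroxyurea, as in most treatments for DAAM1.

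The other falls of DAAM1 among the DDI agents ran from −0.95 with AraC to −0.61 with K2CrO4 and included H2O2 at −0.82, cisplatin at −0.80, gamma rays at −0.78, etoposide at −0.78 and bleomycin at −0.73. Without replicate 1 of etoposide, which stabilises topoisomerase II breaks, its change was −0.57 (adjusted p = 0.0651, limma). K2CrO4 was −0.53 (adjusted p = 0.118) without its replicate 2 and −0.50 (adjusted p = 0.127) without replicate 1 of the vehicle, and not called by limma. Against the mean of the 8 other vehicles, the agents in H2O kept a fall of DAAM1 with AraC (−0.52), hydroxyurea (−0.69), H2O2 (−0.40) and CdCl2 (−1.05). With HPRT as the only reference bleomycin was −0.51 (adjusted p = 0.0657) and K2CrO4 −0.42 (adjusted p = 0.155), not called by limma. Against the 8 other vehicles bleomycin gave −0.31 (adjusted p = 0.119) and K2CrO4 −0.19 (adjusted p = 0.562) and were no longer called by limma. DAAM1 with 5-fluorouracil, which blocks thymidylate synthesis, was −0.48 (adjusted p = 0.0545, limma), and −0.48 with an adjusted p of 0.0425 in the fit with replicate number as a block. It was also called by limma with GUSB alone (−0.64, adjusted p = 0.0087) and with the panel median (−0.785, adjusted p = 0.000705). The fit of only its own and its vehicle samples called it too (adjusted p = 0.0461, limma). Against the mean of all 9 vehicles it was −0.31 (adjusted p = 0.0902, limma) and not called.

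Methotrexate and NaAsO2 were the exceptions among the DDI treatments, since DAAM1 rose in both. DAAM1 stood at −2.77 and −2.51 with methotrexate, an inhibitor of folate metabolism, and at −3.54 and −3.27 in the NaOH vehicle. This was a rise of 0.77 (standard error 0.22, adjusted p = 0.0242, limma). It was no longer called without replicate 2 of methotrexate (0.64, adjusted p = 0.201) or without replicate 1 of the vehicle (0.63, adjusted p = 0.383). With NaAsO2 DAAM1 was −3.34 and −3.53 against −4.48 and −4.28 in the separate H2O vehicle, a rise of 0.94 (standard error 0.22, adjusted p = 0.000303, limma). With HPRT as the only reference it was 0.56 (adjusted p = 0.0729, limma). The NaAsO2 samples themselves were within the range of the other vehicles, and against the mean of all 9 vehicles the change was −0.088 (adjusted p = 0.742, limma).

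Among the 15 non-DDI treatments DAAM1 rose in 6 and fell in 2, where 14.2% of all tests on these treatments were called higher and 12.1% lower. Of the 4 HDAC inhibitors, which raise histone acetylation, 3 raised DAAM1. DAAM1 stood at −1.73 and −1.73 with apicidin and at −1.94 and −1.93 with oxamflatin, against −3.10 and −3.26 in DMSO. The rises were 1.45 for apicidin (adjusted p = 3e-07) and 1.25 for oxamflatin (adjusted p = 6.88e-06), each with a standard error of 0.22 (limma). HC toxin gave −2.40 and −2.20 against −3.68 and −2.96 in MeOH, a rise of 1.02 (adjusted p = 0.000158, limma), with the vehicle replicates 0.72 apart, the widest replicate gap of DAAM1 in any condition. Trichostatin A, at 20 ng/ml, stood at −3.42 and −3.43, a difference of −0.24 (adjusted p = 0.994, limma). The doses of the 4 inhibitors differ in amount and unit, so the values are not compared.

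Thapsigargin and the microtubule destabilisers also raised DAAM1. Thapsigargin empties the calcium store of the endoplasmic reticulum by blocking its pump, and DAAM1 stood at −1.78 and −1.55 with it, against −2.51 and −2.99 in acetonitrile. The rise was 1.08 (adjusted p = 9.58e-05), and 1.87 (adjusted p = 1.75e-12) against the mean of the 6 vehicles other than H2O, EtOH and acetonitrile, both from limma. Vinblastine gave −2.25 and −2.43 against DMSO, a rise of 0.84 (adjusted p = 0.00429, limma). Colchicine gave −2.06 and −2.73 against −3.15 and −3.21 in EtOH, a rise of 0.79 (adjusted p = 0.00674, limma). Leaving out 1 sample ended these 2 calls: colchicine was 0.46 (adjusted p = 0.318) without its replicate 1 and 0.76 (adjusted p = 0.0555) without vehicle replicate 2, and vinblastine 0.75 (adjusted p = 0.0742) and 0.76 (adjusted p = 0.0666) without the same 2 kinds of sample. Colchicine against the 6 other vehicles was 1.14 (adjusted p = 1.82e-06, limma).

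The 2 non-DDI agents with lower DAAM1 were the inhibitors of energy metabolism. Antimycin A, which blocks complex III of the respiratory chain, gave −4.26 and −3.97 against −3.15 and −3.21 in EtOH. The change was −0.94 (adjusted p = 0.000716), and −0.58 (adjusted p = 0.00449) against the 6 other vehicles, both from limma. The glucose analogue 2-deoxyglucose gave −3.93 and −3.48 against −2.86 and −3.08 in H2O, a change of −0.74 (adjusted p = 0.00465, limma). Against the mean of the 8 other vehicles it was −0.31 (adjusted p = 0.445, limma), and without replicate 1 of the treated samples −0.51 (adjusted p = 0.121, limma). Without replicate 1 of the H2O vehicle it was −0.63 (adjusted p = 0.0569, limma), and with HPRT as the only reference −0.57 (adjusted p = 0.0527, limma). DAAM1 was not called with docetaxel, paclitaxel, tunicamycin, heat shock or either ethanol dose, at −0.39 to 0.27.

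FAM123B rose in 7 of the 14 DDI treatments and 1 of the 15 non-DDI treatments, where 46.5% and 14.2% of all tests were called higher. Of these 8 rises 6 were in agents compared with the H2O vehicle. AraC stood at −3.42 and −3.65 and hydroxyurea at −3.55 and −3.51, against −4.83 and −4.81 in H2O. These are rises of 1.29 each, with adjusted p of 4.36e-11 for AraC and 4.94e-11 for hydroxyurea (limma). The groups are well apart, and both agents inhibit DNA replication. Rises followed with 2-deoxyglucose at 0.94, bleomycin at 0.89, K2CrO4 at 0.83 and H2O2 at 0.76, while CdCl2 gave 0.13 (adjusted p = 0.444, limma).

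Most of these calls depended on the comparator. Against the mean of the 8 other vehicles AraC was 0.29 (adjusted p = 0.0111) and hydroxyurea 0.30 (adjusted p = 0.0101), both still called by limma. Bleomycin turned to −0.11 (adjusted p = 0.438), K2CrO4 to −0.17 (adjusted p = 0.364) and 2-deoxyglucose to −0.056 (adjusted p = 0.874), none called. H2O2 turned to −0.24 (adjusted p = 0.0478) and CdCl2 to −0.87 (adjusted p = 3.62e-09), both called lower by limma. With the panel median as reference and the H2O vehicle kept, 2-deoxyglucose was 0.515 (adjusted p = 0.00815) and hydroxyurea 0.48 (adjusted p = 0.00826), both still called by limma. In that setting AraC was 0.30 (adjusted p = 0.0865), H2O2 0.040 (adjusted p = 0.86), K2CrO4 0.16 (adjusted p = 0.447) and bleomycin −0.14 (adjusted p = 0.503), not called by limma. CdCl2 left FAM123B at −4.63 and −4.76, near the level of the H2O vehicle, whereas the other 6 agents in H2O had levels of −4.09 to −3.42, which overlap the other vehicles.

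**Figure D3:**
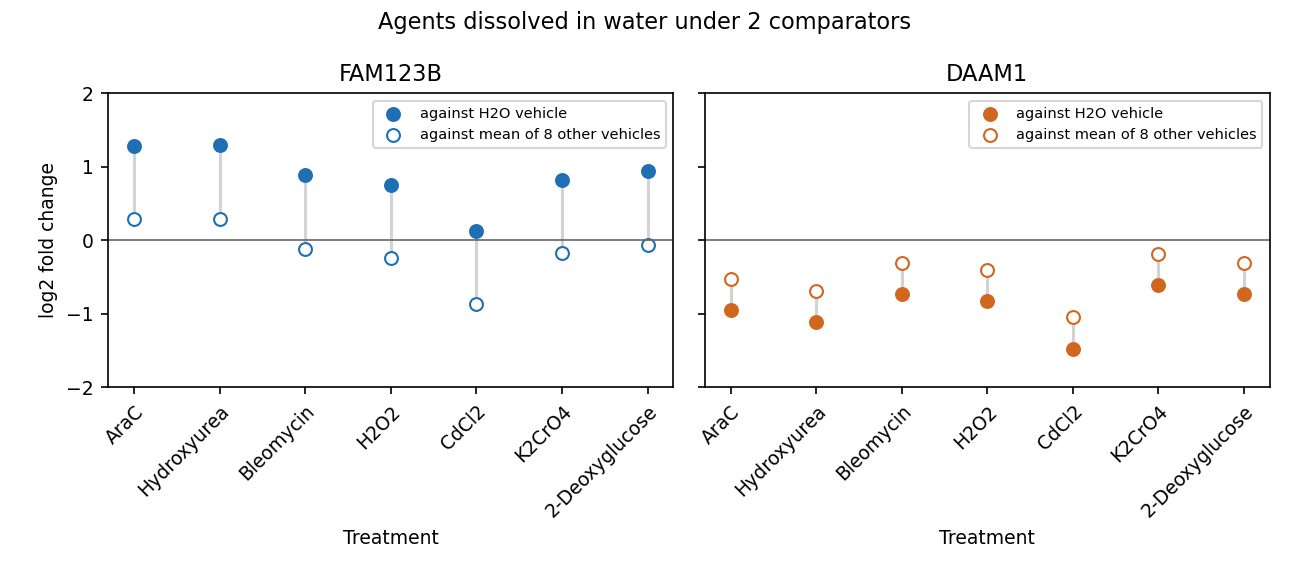
Log2 fold change of FAM123B (left) and DAAM1 (right) for the 7 agents dissolved in water, against the H2O vehicle (filled) and against the mean of the 8 other vehicles (open). For FAM123B the open circles lie between −0.87 and 0.30 and only AraC and hydroxyurea stay above 0, while for DAAM1 all 7 stay below 0.

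The remaining rises of FAM123B were in agents dissolved in DMSO. Camptothecin stood at −3.32 and −3.51 against −4.07 and −3.82, a rise of 0.53 (standard error 0.14, adjusted p = 0.000984, limma). 5-Fluorouracil stood at −3.53 and −3.46, a rise of 0.46 (adjusted p = 0.00527, limma), and was 0.33 (adjusted p = 0.102, limma) without replicate 1 of the vehicle. With GUSB as the only reference camptothecin was 0.30 (adjusted p = 0.073) and 5-fluorouracil 0.29 (adjusted p = 0.0832), and neither was called by limma. With the panel median camptothecin turned to −0.025 (adjusted p = 0.938) and 5-fluorouracil was 0.15 (adjusted p = 0.452), again not called by limma. Etoposide gave 0.30 (adjusted p = 0.0633, limma), and an adjusted p of 0.0469 with replicate number as a block. Cisplatin, MMS and gamma rays gave −0.03, −0.05 and −0.19, and treated and vehicle samples overlapped in each. With the panel median gamma rays were at −0.54 and called lower (adjusted p = 0.0037, limma), and against the mean of all 9 vehicles MMS was at 0.24 and called higher (adjusted p = 0.0306, limma).

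FAM123B fell in 9 of the 15 non-DDI treatments, against 12.1% of all tests on them, and in 1 of the 14 DDI treatments. The largest falls came with apicidin, thapsigargin and HC toxin. Apicidin stood at −5.23 and −5.20, a change of −1.27 (standard error 0.14, adjusted p = 2.78e-10, limma), and these were the lowest FAM123B levels of all 76 samples. HC toxin gave −5.13 and −5.01 against −3.95 and −3.90, a change of −1.15 (adjusted p = 4.52e-09, limma). Oxamflatin gave −4.76 and −4.87, a change of −0.87 (adjusted p = 1.62e-06, limma), and trichostatin A gave 0.04 (adjusted p = 0.994, limma).

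The agents that disturb the endoplasmic reticulum both lowered FAM123B. Thapsigargin stood at −4.71 and −4.74 against −3.30 and −3.63, a change of −1.26 (adjusted p = 2.17e-09, limma). Against the 6 other vehicles it was −0.85 (adjusted p = 9.21e-09, limma). Tunicamycin, which blocks N-glycosylation of proteins, gave −4.76 and −4.47, a change of −0.72 (adjusted p = 5.74e-05, limma). DAAM1 rose with thapsigargin and was −0.23 (adjusted p = 0.504, limma) with tunicamycin, so the 2 agents were alike in direction for FAM123B and not called alike for DAAM1.

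The other falls of FAM123B were ethanol at 2% (−0.84, adjusted p = 5.47e-06), NaAsO2 (−0.57, adjusted p = 0.000577), vinblastine (−0.48, adjusted p = 0.0108), colchicine (−0.45, adjusted p = 0.0193) and ethanol at 4% (−0.41, adjusted p = 0.023), all from limma. NaAsO2 stood at −4.78 and −4.76 against −4.55 and −3.86, and without the second vehicle replicate the change was −0.23 (adjusted p = 0.158, limma). With GUSB as the only reference it was −0.19 (adjusted p = 0.229, limma). Colchicine was not called when any 1 of its 4 samples was left out (−0.50 to −0.40, adjusted p = 0.0564 to 0.159, limma). Vinblastine was not called without either treated replicate (−0.51 and −0.46) or without vehicle replicate 2 (−0.36, adjusted p = 0.222, limma), and ethanol at 4% not without either treated replicate (−0.38 and −0.43) or without vehicle replicate 2 (−0.26, adjusted p = 0.343, limma). With HPRT as the only reference colchicine (−0.37), vinblastine (−0.39) and ethanol at 4% (−0.46, adjusted p = 0.0519) were not called by limma, and neither were ethanol at 4% with GUSB alone (−0.35) and vinblastine with the panel median (−0.21). Antimycin A gave −0.36 (adjusted p = 0.051), −0.36 with an adjusted p of 0.0275 in the block fit, and −0.38 (adjusted p = 0.00375) against the 6 other vehicles, all from limma. Methotrexate gave −0.35 (adjusted p = 0.114, limma), and docetaxel, paclitaxel and heat shock lay between −0.12 and 0.05.

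Averaged over the agents of a mode of action, DAAM1 was lower in 6 of the 11 modes with 2 or more treatments and higher in 2, and FAM123B was lower in 4 and higher in 4. Some of these modes joined agents that the paper lists under separate modes. These were the topoisomerase I and II inhibitors, and the glycolysis inhibitor with the electron transport agent. Over all genes and modes, 35.8% of the tests were called higher and 15.8% lower. DAAM1 was lowest with the topoisomerase inhibitors, at −1.40 (standard error 0.19, adjusted p = 2.05e-08, limma), and highest with the HDAC inhibitors, at 0.87 (standard error 0.15, adjusted p = 2.19e-06, limma). FAM123B was highest with the DNA antimetabolites AraC and hydroxyurea, at 1.29 (standard error 0.12, adjusted p = 7.49e-13, limma), and lowest with the endoplasmic reticulum modulators, at −0.99 (standard error 0.10, adjusted p = 2.34e-11, limma). The HDAC inhibitors gave −0.81 for FAM123B (standard error 0.09, adjusted p = 6.18e-10, limma). The order of the modes depended on the comparator. With the agents in EtOH or acetonitrile against the 6 other vehicles, the endoplasmic reticulum modulators were at −0.80 for FAM123B, beside −0.81 for the HDAC inhibitors, and at 1.00 for DAAM1, above their 0.87. With the agents in H2O against the 8 other vehicles, the DNA antimetabolites were at 0.29 for FAM123B, below the topoisomerase inhibitors at 0.41, and with the panel median they were at −1.93 for DAAM1, below the topoisomerase inhibitors at −1.78. The average of the HDAC inhibitors differed from that of the antimitotic agents by −0.52 for FAM123B (adjusted p = 2.57e-07) and by 0.50 for DAAM1 (adjusted p = 0.000583), both from limma. The standard errors and adjusted p of all these averages reflect replicate spread within a condition, not the spread between agents of a mode. Single HDAC inhibitors ran from −1.27 to 0.04 for FAM123B and from −0.24 to 1.45 for DAAM1. The antimitotic agents lay within these ranges, at −0.48 to −0.10 and −0.08 to 0.84.

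Several mode averages joined agents that did not move alike, or not by the same amount. The topoisomerase inhibitors averaged −1.40 for DAAM1, from camptothecin at −2.02 and etoposide at −0.78. Etoposide alone lay above the average of the DNA antimetabolites, −1.03. For FAM123B the topoisomerase inhibitors averaged 0.41, and without camptothecin 0.30 (adjusted p = 0.0633, limma). The metals averaged −0.38 for DAAM1 (adjusted p = 0.0297, limma), from CdCl2 at −1.47, K2CrO4 at −0.61 and NaAsO2 at 0.94, and without CdCl2 the average was 0.16 (adjusted p = 0.342, limma). Against the 8 other vehicles for the agents in H2O it was −0.099 (adjusted p = 0.537, limma). The endoplasmic reticulum modulators averaged 0.43 for DAAM1 (adjusted p = 0.0232, limma), and without thapsigargin −0.23 (adjusted p = 0.504, limma). The energy metabolism inhibitors averaged 0.29 for FAM123B (adjusted p = 0.0197, limma), and antimycin A alone was −0.36. The antimitotic agents averaged −0.29 for FAM123B (adjusted p = 0.0324, limma), but the taxanes docetaxel and paclitaxel, which stabilise microtubules, were near 0 while vinblastine and colchicine, which take them apart, were at −0.48 and −0.45. This contrast within the antimitotic agents was seen in the values and was not tested.

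Between the classes, FAM123B was higher and DAAM1 lower with DDI than with non-DDI treatments. The FAM123B fold changes of the 14 DDI treatments averaged 0.38 ± 0.59 (SD) and those of the 15 non-DDI treatments −0.47 ± 0.59. The difference was 0.84 (standard error 0.22, adjusted p = 0.0011, limma). For DAAM1 the averages were −0.71 ± 0.77 and 0.25 ± 0.76, and the difference was −0.96 (standard error 0.27, adjusted p = 0.00217, limma). Of the 61 genes 57.4% were called higher and 18.0% lower in this comparison. The panel was assembled in earlier work to tell these classes apart with the same agents, so these differences are no independent evidence of a direction.

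The class ranges of both genes overlapped. FAM123B spanned −0.57 to 1.29 in DDI and −1.27 to 0.94 in non-DDI treatments, and DAAM1 −2.02 to 0.94 and −0.94 to 1.45. Within the 10 agents dissolved in DMSO, the DDI treatments averaged 0.31 for FAM123B (4 agents, −0.03 to 0.53) and the non-DDI treatments −0.47 (6 agents, −1.27 to 0.04). DAAM1 averaged −1.02 (−2.02 to −0.48) and 0.52 (−0.24 to 1.45) in the same agents, with no overlap between the classes. The H2O vehicle held 6 DDI agents and 1 non-DDI agent, 2-deoxyglucose, which lay at 0.94 for FAM123B and −0.74 for DAAM1, within the range of the 6. With the solvent as a block the FAM123B difference was 0.49 (adjusted p = 0.0599, limma) and no longer called, while that of DAAM1 was −1.09 (adjusted p = 0.00395, limma). Scaling to the median of the panel lowered every gene's DDI fold changes by 0.44 on average and raised the non-DDI ones by 0.07, and FAM123B then differed by 0.33 (adjusted p = 0.0835, limma) and DAAM1 by −1.47 (adjusted p = 0.000335, limma).

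The 2 genes often moved in opposite directions. Against their own vehicle and with both references, they were called in opposite directions in 14 treatments, with FAM123B higher and DAAM1 lower in 7 and the reverse in 7. In that setting no treatment had both called in the same direction, but other settings had some. Of the 7 with FAM123B higher, 6 were set against the H2O vehicle, which was itself low for FAM123B and high for DAAM1. Against the 8 other vehicles, the treatments with FAM123B higher and DAAM1 lower numbered 3, which were AraC, hydroxyurea and camptothecin, and both genes were called lower with H2O2 and CdCl2. With the panel median they numbered 2, and both genes were called lower with gamma rays. Antimycin A had both genes called lower with GUSB alone, with replicate number as a block, and against the 6 vehicles other than H2O, EtOH and acetonitrile. The same held for antimycin A and CdCl2 against the mean of all 9 vehicles. Treatments with FAM123B lower and DAAM1 higher numbered 4 with HPRT alone and 6 to 7 under the other references and comparators. Against the mean of all 9 vehicles the 7 were not the same set. NaAsO2 dropped out there (DAAM1 −0.088) and ethanol at 2% entered (DAAM1 0.47). The mean fold changes of the 2 genes had opposite signs in 21 of 29 treatments. The correlation across the 29 treatments was r = −0.758 (Spearman −0.786), where the points share reference genes and vehicles. In the 10 agents dissolved in DMSO it was −0.917 and in the 7 dissolved in H2O 0.447 (Spearman −0.036). Within the DDI treatments it was −0.511 (Spearman −0.371) and within the non-DDI treatments −0.765 (Spearman −0.839). Over the 1830 pairs of panel genes the median r was 0.251, and 17 pairs, 0.929%, had a lower r than these 2 genes. Those pairs were compared over all 29 treatments, which join the 2 classes that the panel was assembled to tell apart.

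**Figure D4:**
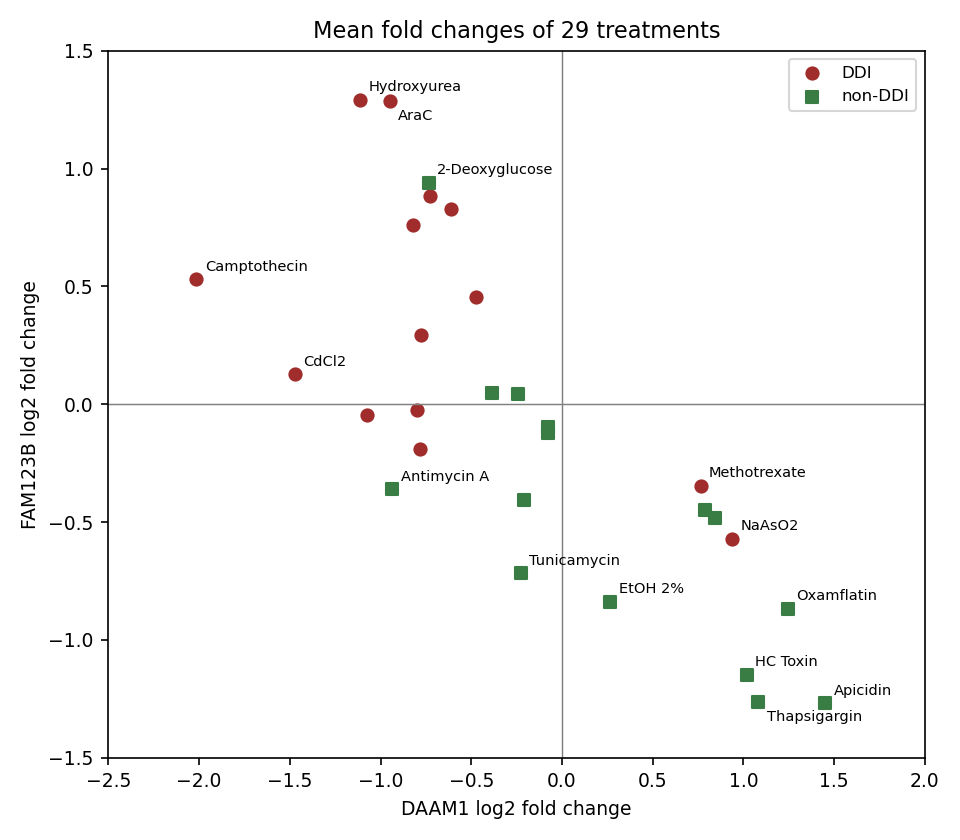
Mean log2 fold change of FAM123B against that of DAAM1 in 29 treatments, each against its own vehicle, with DDI as circles and non-DDI as squares. Hydroxyurea and AraC lie at the upper left, apicidin and thapsigargin at the lower right, and no treatment has both fold changes above 0.

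Taking DAAM1 itself as the reference gives the difference between the 2 genes without HPRT and GUSB. FAM123B rose relative to DAAM1 in 14 treatments and fell in 9, against 37.6% and 22.4% of the tests on the 60 other genes. The difference was 2.55 with camptothecin (standard error 0.22), 2.41 with hydroxyurea and 2.24 with AraC. It was −2.72 with apicidin, −2.35 with thapsigargin and −2.17 with HC toxin. All of these were called by limma. Against the mean of the 8 other vehicles hydroxyurea was 0.99 and AraC 0.82, still called. Bleomycin (0.20), H2O2 (0.16), CdCl2 (0.18), K2CrO4 (0.021) and 2-deoxyglucose (0.26) were no longer called by limma. This left 9 treatments with a rise of FAM123B relative to DAAM1. Against their own vehicles, among the DDI treatments 12 were called higher and methotrexate (−1.11) and NaAsO2 (−1.51) lower. The calls of cisplatin (0.78) and gamma rays (0.59) were lost when certain single samples were left out. Cisplatin was 0.515 without its replicate 2 and 0.57 without replicate 1 of its vehicle. Gamma rays were at 0.58 without their replicate 1 and 0.44 without replicate 1 of their vehicle. Docetaxel (−0.05), paclitaxel (−0.02), trichostatin A (0.29), tunicamycin (−0.49), heat shock (0.44) and ethanol at 4% (−0.20) were not called.

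Docetaxel and paclitaxel, taxanes with the same core that differ in side groups, were compared at 50 nM in the same vehicle. FAM123B differed by −0.02 (95% confidence interval −0.31 to 0.26) and DAAM1 by 0.00 (−0.44 to 0.45), with an adjusted p of 0.991 for both (limma). A difference of up to about those bounds cannot be told from none. Ethanol was the only agent at 2 doses. FAM123B stood at −4.78 and −4.56 with 2% and at −4.26 and −4.21 with 4%, and was 0.43 higher with the higher dose (standard error 0.14, adjusted p = 0.0166, limma). DAAM1 stood at −3.13 and −2.64 with 2% and −3.62 and −3.10 with 4%, a difference of −0.48 (standard error 0.22, adjusted p = 0.108, limma). The FAM123B call was lost without replicate 1 of 2% (0.32, adjusted p = 0.148) and without either replicate of 4% (0.46 and 0.41), and DAAM1 was called without replicate 1 of 2% (−0.72, adjusted p = 0.0371) or replicate 2 of 4% (−0.74, adjusted p = 0.0345), all from limma. Docetaxel and paclitaxel were the 1 pair of related compounds compared, and p was adjusted over the 61 genes.

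Over all 38 conditions, the DAAM1 means spanned 3.53 on the log2 scale and the FAM123B means 1.80. DAAM1 was lowest with camptothecin, MMS and CdCl2 and highest with thapsigargin, apicidin and oxamflatin. FAM123B was lowest with apicidin, HC toxin and in the H2O vehicle. Replicates of a condition were 0.22 apart for DAAM1 and 0.11 for FAM123B in the median. Most neighbours in the order did not differ beyond this spread: of 37 steps between neighbours, 5 for DAAM1 and 3 for FAM123B exceeded the pooled replicate SD of 0.22 and 0.14. For DAAM1 these steps included those that set off camptothecin, MMS and the thapsigargin, apicidin and oxamflatin group, and for FAM123B apicidin and HC toxin.

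The genes most like DAAM1 over the 38 condition means were LRRFIP2 (r = 0.869), CBLB (0.733), RAPGEF2 (0.683), ITPR1 (0.630) and CENPE (0.626), and the least like it PHLDA3 (−0.676), AEN (−0.666) and PRKAB1 (−0.629). CBLB is a ubiquitin ligase of receptor signalling, CENPE a mitotic kinesin, and PHLDA3 and AEN are targets of p53. Those most like FAM123B were E2F8 (0.867), TOPORS (0.754), EI24 (0.731), NLRX1 (0.700) and COIL (0.697), and those least like it PTGER4 (−0.675), B3GNT2 (−0.647) and RAPGEF2 (−0.603). E2F8 is a repressor of the E2F family, and TOPORS a ubiquitin and SUMO ligase. The median r with the 60 other genes was −0.285 for DAAM1 and 0.389 for FAM123B, all over the same samples and references.

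The 3 other panel genes linked to Wnt signalling were, like DAAM1, called lower in more treatments than higher. This was not particular to them. CBLB rose in 6 and fell in 11 treatments, CENPE in 6 and 12, and B3GNT2 in 10 and 13. Over all genes and treatments, 29.8% of the tests were called higher and 13.5% lower. LRRFIP2, which binds Dishevelled, rose in 3 and fell in 10 of 29 treatments. ID2, an inhibitor of differentiation that Wnt and BMP signals can induce, rose in 6 and fell in 12. ITPR1, the inositol trisphosphate receptor that releases calcium in the Wnt calcium branch, rose in 7 and fell in 10. In the DDI treatments they fell in 10, 10 and 9 of 14, against 14.9% of all tests on those treatments, and their median fold changes were −0.51, −0.79 and −0.81, beside −0.79 for DAAM1. Of the genes of actin and adhesion, RAPGEF2, an activator of Rap GTPases, fell in 12 of 14 DDI treatments and rose in 9 of 15 non-DDI treatments. ACTA2, smooth muscle actin, rose in 9 of 14 DDI treatments and fell in none. Of all tests, 46.5% were called higher on DDI treatments and 14.2% on non-DDI treatments.

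DAAM1 and the 4 genes most like it were also the longest of the matched panel genes. Of the 58 panel genes matched to a RefSeq gene, 5 spanned more than 100000 bp: ITPR1 (354159 bp), RAPGEF2 (257095 bp), CBLB (213989 bp), DAAM1 (182739 bp) and LRRFIP2 (123735 bp), and CENPE came next with 92533 bp. FAM123B, at 20592 bp, was near the median of 20833 bp. With camptothecin all 5 long genes lay below their vehicle, with log2 fold changes of −1.60, −2.92, −3.08, −2.02 and −1.39 in that order, and CENPE at −2.21. Of the 53 shorter genes 9 lay below it, and the median of these 53 was 0.79. Camptothecin was the treatment with the deepest fall of DAAM1, and length was not set against the fold changes of other treatments. The long genes did not move together in every treatment. With antimycin A, DAAM1 was at −0.94, ITPR1 at 1.21, RAPGEF2 at 1.06 and LRRFIP2 at 0.005. The length limit was chosen after the values were seen, and the link between length and fold change was not tested.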

How the data were processed

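Per the authors' methods, cells were exposed on 2 separate occasions, RNA was reverse transcribed and amplified with TaqMan assays, and the deposited matrix holds Cq values, the raw cycle numbers, not normalized to any gene. The authors' own fold changes of treatments against vehicle, deposited in a second table, were not used. Vehicles of each treatment were taken from the labels and the methods. Minus ΔCq was computed against HPRT and GUSB, and limma 3.58.1 (R 4.3.3) was fitted to 61 genes and 76 samples with 1 coefficient for each of 38 conditions (38 residual degrees of freedom). Calls used Benjamini-Hochberg adjusted p under 0.05 over 61 genes within a contrast, and DDI was set against non-DDI with limma over the 29 averaged fold changes. No low value was filtered, qPCR has no read depth, and 2 replicates limit the precision. The script was tested on simulated data. Alternatives were other references, vehicles, adjustments and samples, left-out replicates and the replicate number as a block. Deviations of same-numbered treated and vehicle samples correlated at a median r of 0.237 (19 of 29 pairs above 0.1, 7 below −0.1); the pairing comes from the 2 occasions in the methods. The named genes were FAM123B, DAAM1, the 5 most and 3 least correlated genes, and lists of Wnt-linked and of actin and adhesion genes. The members and lists were chosen with earlier results of these data known.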

Additional observations from a re-analysis of the deposited data

Results flagged for a closer look

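The averages of the HDAC inhibitors and of the antimitotic agents differed in a test of the difference: FAM123B by −0.52 and DAAM1 by 0.50 on the log2 scale. That test measured replicate spread and not the spread between agents, so it covers only the agents used. Ethanol at 4% and 2% differed by 0.43 for FAM123B. What lies behind these differences was not tested.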

How the results depend on the processing

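The DAAM1 class difference kept its direction and stayed called under all alternatives run, between −1.54 (agents in DMSO only) and −0.81 (agents in H2O against the 8 other vehicles). That of FAM123B kept its direction, from 0.33 to 0.94, and was no longer called with the panel median as reference (0.33) or the solvent as a block (0.49). Leaving out the agents in H2O, EtOH or acetonitrile, chosen after seeing the data, gave 0.53 and −0.91, both called. Treatments with FAM123B called higher numbered 2 with the panel median and 4 with H2O agents against the 8 other vehicles, in place of 8. Those called lower numbered 5 when only the samples of a treatment and its vehicle were fitted, in place of 10, and 6 to 9 with a replicate left out. DAAM1 was called higher in 4 treatments in that smaller fit, in place of 8. FAM123B rose relative to DAAM1 in 9 treatments against the mean of all 9 vehicles, in place of 14. The number was also 9 with H2O agents against the 8 other vehicles. Modes with FAM123B higher numbered 2 with GUSB alone, 2 with H2O agents against the 8 other vehicles and 1 with the panel median, in place of 4, and modes with DAAM1 higher 1 with HPRT alone, in place of 2. The DAAM1 difference of the H2O vehicle was 0.25 with HPRT alone, 0.60 with GUSB alone, 1.03 with the panel median and 0.31 to 0.53 with a replicate left out, and that of FAM123B −0.39 with the panel median. The ethanol dose difference of FAM123B was 0.34 with GUSB alone, 0.30 with the panel median and 0.32 to 0.54 with a replicate left out, and that of DAAM1 −0.58, −0.61 and −0.74 to −0.22.

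Single treatments changed sign as follows. FAM123B against the 8 other vehicles was −0.11 with bleomycin, −0.24 with H2O2, −0.87 with CdCl2, −0.17 with K2CrO4 and −0.056 with 2-deoxyglucose. Against the mean of all 9 vehicles it was 0.24 with MMS, −0.13 with H2O2, −0.76 with CdCl2 and −0.058 with K2CrO4, and DAAM1 with NaAsO2 was −0.088. With the panel median FAM123B was −0.025 with camptothecin and −0.14 with bleomycin. Of the modes, FAM123B turned to −0.13 for energy metabolism inhibitors, −0.55 for metals and −0.069 for strand break agents against all 9 vehicles, to −0.28 for metals and −0.21 for strand break agents with the panel median, and to −0.36 without 2-deoxyglucose. With H2O agents against the 8 other vehicles it was −0.21 for energy metabolism inhibitors, −0.54 for metals and −0.18 for strand break agents. DAAM1 turned to −0.23 without thapsigargin and to 0.16 without CdCl2. The cause was not tested. The vehicle alternatives for modes and for FAM123B minus DAAM1, other than the mean of all 9, were chosen after seeing the data. Another 18 sign changes were in values called under neither setting. The replicate block made 3 further calls, named above, and changed no other call. With the repeated Cq values set missing, colchicine, tunicamycin, thapsigargin and antimycin A could not be fitted. Having 2 replicates of 1 cell line limits every value.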
